A study of Mus musculus with 13 samples.

Results

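The genes described are 9 mouse enzymes that break down alcohols, aldehydes and the amino acid GABA: the alcohol dehydrogenases Adh1, Adh5 and Adh7, the aldehyde dehydrogenases Aldh2, Aldh3a2, Aldh7a1 and Aldh9a1, and the GABA enzymes Abat and Aldh5a1. They were chosen by gene name from the 31528 genes of the deposited table, for higher values of Adh1, Abat and Aldh2 in diapause blastocysts than in blastocysts of embryonic day 4.5. Values against day 4.5 are therefore given as a description, without a test. All 9 were among the 21808 genes that passed the filter on low counts.

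Alcohol dehydrogenases pass hydrogen from an alcohol to NAD+ and so make an aldehyde, and aldehyde dehydrogenases oxidise the aldehyde further to an acid. GABA takes a similar way out of the cell's amino acid pool: GABA transaminase (Abat) turns it into succinic semialdehyde in the mitochondrion, and succinic semialdehyde dehydrogenase (Aldh5a1) makes succinate for the citric acid cycle. Adh1 is best known as the abundant ethanol and retinol oxidising enzyme of liver and gut, and Aldh2 as the mitochondrial enzyme that clears acetaldehyde.

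In embryonic diapause a blastocyst pauses its growth for a time instead of implanting, and the study asked how nutrient deprivation brings this about. RNA of whole blastocysts of B6D2F1 background (mixed C57BL/6 and DBA2J) was sequenced in 13 libraries of 6 groups. Targeted OVX (n = 2) were day 5.5 blastocysts with guide RNAs against Nprl2 and Tsc2, after ovariectomy of the mother, labelled as knockouts of both genes. Reduced KSOM (n = 3) were day 5.5 blastocysts cultured in KSOM, a simple embryo medium, with less arginine, leucine, isoleucine, lysine, glucose and lactate. Depleted KSOM (n = 2) were cultured to day 5.5 in KSOM lacking its protein and carbohydrate components. Starvation (n = 2) and OVX (n = 2) were wild-type day 5.5 blastocysts of a starvation treatment and after ovariectomy, and E4.5 (n = 2) were wild-type day 4.5 blastocysts on normal diet. Both KSOM groups were wild type too. Age and treatment cannot be told apart in any comparison with E4.5, and with no group in complete KSOM among the labels, neither can culture and lack of nutrients. Whether replicates came from different mothers or cultures is not in the labels. The p-values rest on the spread of these libraries alone, which may be technical.

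Total counts ran from 40678386 to 72125687 per library. Markers of trophectoderm, epiblast and primitive endoderm were present in every library, with 9 or 10 of the 10 markers of each detected. Their summed levels differed between groups. Primitive endoderm markers summed to 329 to 468 CPM in targeted OVX, 692 to 728 CPM in reduced KSOM, 1337 to 1487 CPM in depleted KSOM, 799 to 1216 CPM in starvation, 482 to 943 CPM in OVX and 832 to 904 CPM in E4.5, so like Adh1 and Abat they were lowest of the day 5.5 groups in targeted OVX and highest on average in depleted KSOM. Epiblast markers summed to 306 to 609 CPM in the day 5.5 libraries and 670 to 675 CPM in E4.5, and trophectoderm markers to 3378 to 20139 CPM over all libraries. The part of these cell types in the differences described here was not tested. Nprl2 and Tsc2 transcripts were not absent from the targeted libraries, at 13.9 and 28.6 CPM (counts scaled to a common library size) for Nprl2 in targeted OVX against 38.0 and 36.5 CPM in OVX, and at 14.7 and 8.26 CPM for Tsc2 in targeted OVX against 23.3 and 14.1 CPM in OVX. A small deletion made by a guide need not lower the transcript, so these values do not check the labels. Summed levels of 13 skeletal muscle markers were 1072 to 1486 CPM in reduced KSOM and 1457 CPM in OVX replicate 1, with all 13 detected in each of these 4 libraries, and at most 493 CPM elsewhere, with 2 to 9 detected. Summed levels of 13 neutrophil markers were 1430.0 to 1999 CPM in reduced KSOM, 802 and 197 CPM in OVX, and at most 154 CPM elsewhere. Of 12 liver markers, the tissue best known for Adh1, the summed level was 9.28 to 135 CPM in the day 5.5 libraries and 74.6 and 250.5 CPM in E4.5. Those of 9 uterine stroma markers reached at most 38.7 CPM, and those of 8 erythroid markers 379 CPM in depleted KSOM replicate 1, 354 CPM in reduced KSOM replicate 3 and at most 83.7 CPM elsewhere. For 10 uterine epithelium markers the sum was 222 to 642 CPM over all libraries, with 5 to 9 detected. It was highest in targeted OVX replicate 2. That list shares Fgfr2 with the trophectoderm list. Marker sums are scaled by library totals. Trimmed-mean (TMM) scaling put the median over all tested genes, as a log2 fold change from E4.5, at −0.16 in targeted OVX, 0.15 in reduced KSOM, −0.09 in depleted KSOM, 0 in starvation and 0 in OVX, whereas scaling by library totals put it at −0.92, −0.5, −0.41, −0.17 and −0.53 in the same order. The higher share of all called genes moved with it, to 14.1%, 15%, 27.9%, 49.1% and 32.1% by library totals, against 63%, 68%, 59.8%, 76% and 76.4% on the TMM scale. CPM of single genes are on the TMM scale.

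The 3 alcohol dehydrogenase genes are neighbours on chromosome 3 and encode similar proteins, which matters for how reads are told apart. Adh1 (ENSMUSG00000074207) spans 138260991 to 138290698, Adh7 138217760 to 138233382 and Adh5 138443093 to 138455499 on the plus strand of GRCm38. Coding sequences of the principal GENCODE transcripts are 68.7% identical between Adh1 and Adh7 and 66.1% between Adh1 and Adh5. Shown is a well conserved stretch of 60 bases, which encodes the glycine-rich turn of the cofactor-binding fold. It runs from base 577 of the Adh1 coding sequence and from base 574 of the other two, and capitals mark bases that differ from Adh1.
Adh1: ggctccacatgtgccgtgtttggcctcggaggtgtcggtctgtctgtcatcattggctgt
Adh7: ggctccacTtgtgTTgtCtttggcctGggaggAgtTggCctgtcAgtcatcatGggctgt
Adh5: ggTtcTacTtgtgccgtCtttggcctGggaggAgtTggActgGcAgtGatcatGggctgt
Adh7 differs from Adh1 at 10 and Adh5 at 12 of these 60 bases. The longest identical run in the aligned coding sequences was 14 bases for Adh1 and Adh7, 16 for Adh1 and Adh5 and 23 for Adh5 and Adh7. Of the 1443 stretches of 50 bases in the main Adh1 transcript, 47 also occur in another gene's transcripts, 43 of them on the opposite strand in the antisense gene Gm16559 and 4 in the pseudogene Adh6-ps1. None of those of Adh5 or Abat do, whereas 62 of 3383 in Adh7 and 81 of 3818 in Aldh2 lie in antisense genes. Strand use in counting is not given in the sources used here, so reads of Adh1 and Gm16559 cannot be told apart where these overlap. Gm16559 itself had at most 6324 counts in a library, against 2080962 for Adh1 in the same library.

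The promoters of the cluster are printed because these neighbours had very different levels. Each window runs from 250 bases before to 50 bases after the RefSeq start (GRCm38.p6, plus strand), which for Adh1 lies inside the span above, in lower case with motif matches in capitals. Of the 9 genes, 6 had entries, with 7 promoters, and Aldh2, Aldh7a1 and Abat had none.
Adh1 (chr3:138277335-138277634): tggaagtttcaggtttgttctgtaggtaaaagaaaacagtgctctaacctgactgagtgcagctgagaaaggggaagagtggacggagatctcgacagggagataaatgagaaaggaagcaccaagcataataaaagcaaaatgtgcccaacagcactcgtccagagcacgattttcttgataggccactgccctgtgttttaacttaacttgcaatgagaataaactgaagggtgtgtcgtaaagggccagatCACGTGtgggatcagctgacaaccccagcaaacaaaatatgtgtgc
Adh7 (chr3:138217523-138217822): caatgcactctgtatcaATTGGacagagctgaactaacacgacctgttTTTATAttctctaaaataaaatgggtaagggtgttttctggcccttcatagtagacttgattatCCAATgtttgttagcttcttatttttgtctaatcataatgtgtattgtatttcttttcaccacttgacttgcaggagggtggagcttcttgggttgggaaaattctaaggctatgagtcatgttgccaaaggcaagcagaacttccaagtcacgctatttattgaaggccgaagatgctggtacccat
Adh5, the CpG-rich one of 2 promoters (chr3:138442843-138443142): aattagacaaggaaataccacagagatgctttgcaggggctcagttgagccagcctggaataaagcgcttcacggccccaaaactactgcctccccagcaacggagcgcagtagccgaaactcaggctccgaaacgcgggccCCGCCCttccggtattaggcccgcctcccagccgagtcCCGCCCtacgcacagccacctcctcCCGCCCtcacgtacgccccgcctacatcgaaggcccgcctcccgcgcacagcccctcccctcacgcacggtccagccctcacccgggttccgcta
The Adh1 window had 45.3% G and C and 6 CpG dinucleotides, the Adh7 window 39.3% and 3, and the Adh5 window 65% and 26, against medians of 52.7% and 7 over 32851 promoters. The capitals in Adh1 are an E-box (CACGTG), whose first base lies 4 bases after the start base and which 7.15% of all promoters hold. Those in Adh7 are 2 CCAAT matches and 1 TATAAA match, held by 37.4% and 13.6% of promoters. Those in Adh5 are 3 matches of the Sp1 motif GGGCGG, held by 35.7%. Both strands were searched. The forkhead motif TGTTTAC (3.65% of promoters) and the antioxidant response motif TGACNNNGC (12.4%) were not in these 3 windows. A match describes letters and shows no binding.

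Adh1 was among the most abundant transcripts of the untargeted day 5.5 blastocysts. It had 1918 and 3099.6 CPM in targeted OVX, 15635, 6072 and 14581 CPM in reduced KSOM, 25650.1 and 22768 CPM in depleted KSOM, 15666 and 16599.9 CPM in starvation, 32452 and 7097 CPM in OVX, and 533 and 851 CPM in E4.5. Every day 5.5 library lay above both E4.5 libraries, the 2 targeted OVX libraries were the lowest of day 5.5, and the OVX pair was the widest apart. The ranges of depleted KSOM and starvation did not overlap each other, whereas the OVX range covered both. The log2 fold change over E4.5 was 1.86 in targeted OVX, 4.13 in reduced KSOM, 5.13 in depleted KSOM, 4.54 in starvation and 4.84 in OVX, or 35.0-fold in depleted KSOM. Without OVX replicate 1, the library with muscle markers, the OVX value was 3.37. In bulk samples, fewer cells of a type and less RNA per cell cannot be told apart.

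As a share of all counts in a library, Adh1 took 0.147% and 0.27% in targeted OVX, 1.3%, 0.559% and 1.19% in reduced KSOM, 2.89% and 2.46% in depleted KSOM, 1.73% and 2.03% in starvation, 2.18% and 0.811% in OVX, and 0.0716% and 0.12% in E4.5. By count its rank among all genes was 1 or 2 in depleted KSOM and starvation, 4 and 6 in OVX, and 217 and 101 in E4.5. It was 130 and 47 in targeted OVX and 6, 16 and 8 in reduced KSOM. By FPKM the rank was 10 and 13 in depleted KSOM, 6 and 8 in starvation, and 6 and 19 in OVX. That rank was 186 and 93 in targeted OVX, 17, 44 and 26 in reduced KSOM, and 333 and 174 in E4.5. Amplified cDNA without molecular identifiers was counted, so a share counts copies and not molecules.

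**Figure D1:**
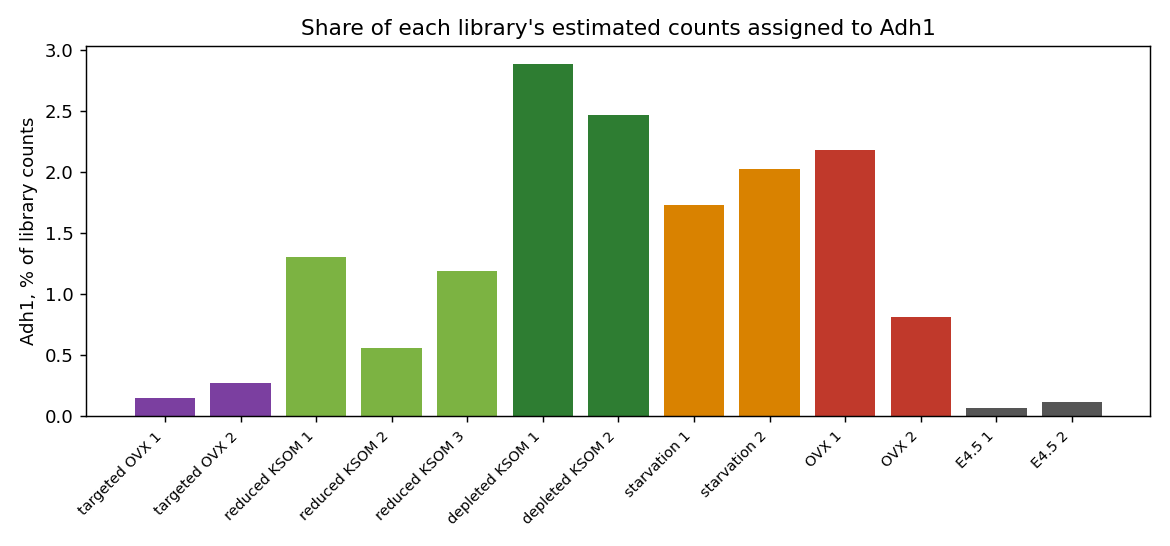
Share of each library's estimated counts assigned to Adh1, in percent, with 1 bar per library and colours for the 6 groups. The bars reach 2.89% in depleted KSOM, stay at or under 0.27% in targeted OVX and are at or under 0.12% in E4.5.

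Neither neighbour followed Adh1 in size. Adh5, the glutathione-dependent formaldehyde dehydrogenase that most cells use, had 162 and 145 CPM in targeted OVX, 160.2, 148 and 122 CPM in reduced KSOM, 181 and 204 CPM in depleted KSOM, 195 and 237 CPM in starvation, 146 and 176 CPM in OVX, and 106 and 112 CPM in E4.5. All day 5.5 libraries were above E4.5 on this scale, by a log2 fold change of 0.4 to 0.99, but with library totals the value was −0.26 in targeted OVX, −0.28 in reduced KSOM and 0 in OVX. Adh7, the class of the enzyme known from stomach and other epithelia, stayed low, at 0 and 70 counts in targeted OVX, 150, 14 and 159 in reduced KSOM, 3 and 11 in depleted KSOM, 0 and 24 in starvation, 14 and 523 in OVX, and 32 and 0 in E4.5. These counts spread widely within groups, so no order of the groups can be read from it. Per transcript length, the FPKM ratio of Adh1 to Adh5 was 28.6 and 51.8 in targeted OVX, 99.2 to 289 in reduced KSOM, 343 and 271 in depleted KSOM, 194 and 170 in starvation, 538 and 97.5 in OVX, and 12.2 and 18.5 in E4.5.

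**Figure D2:**
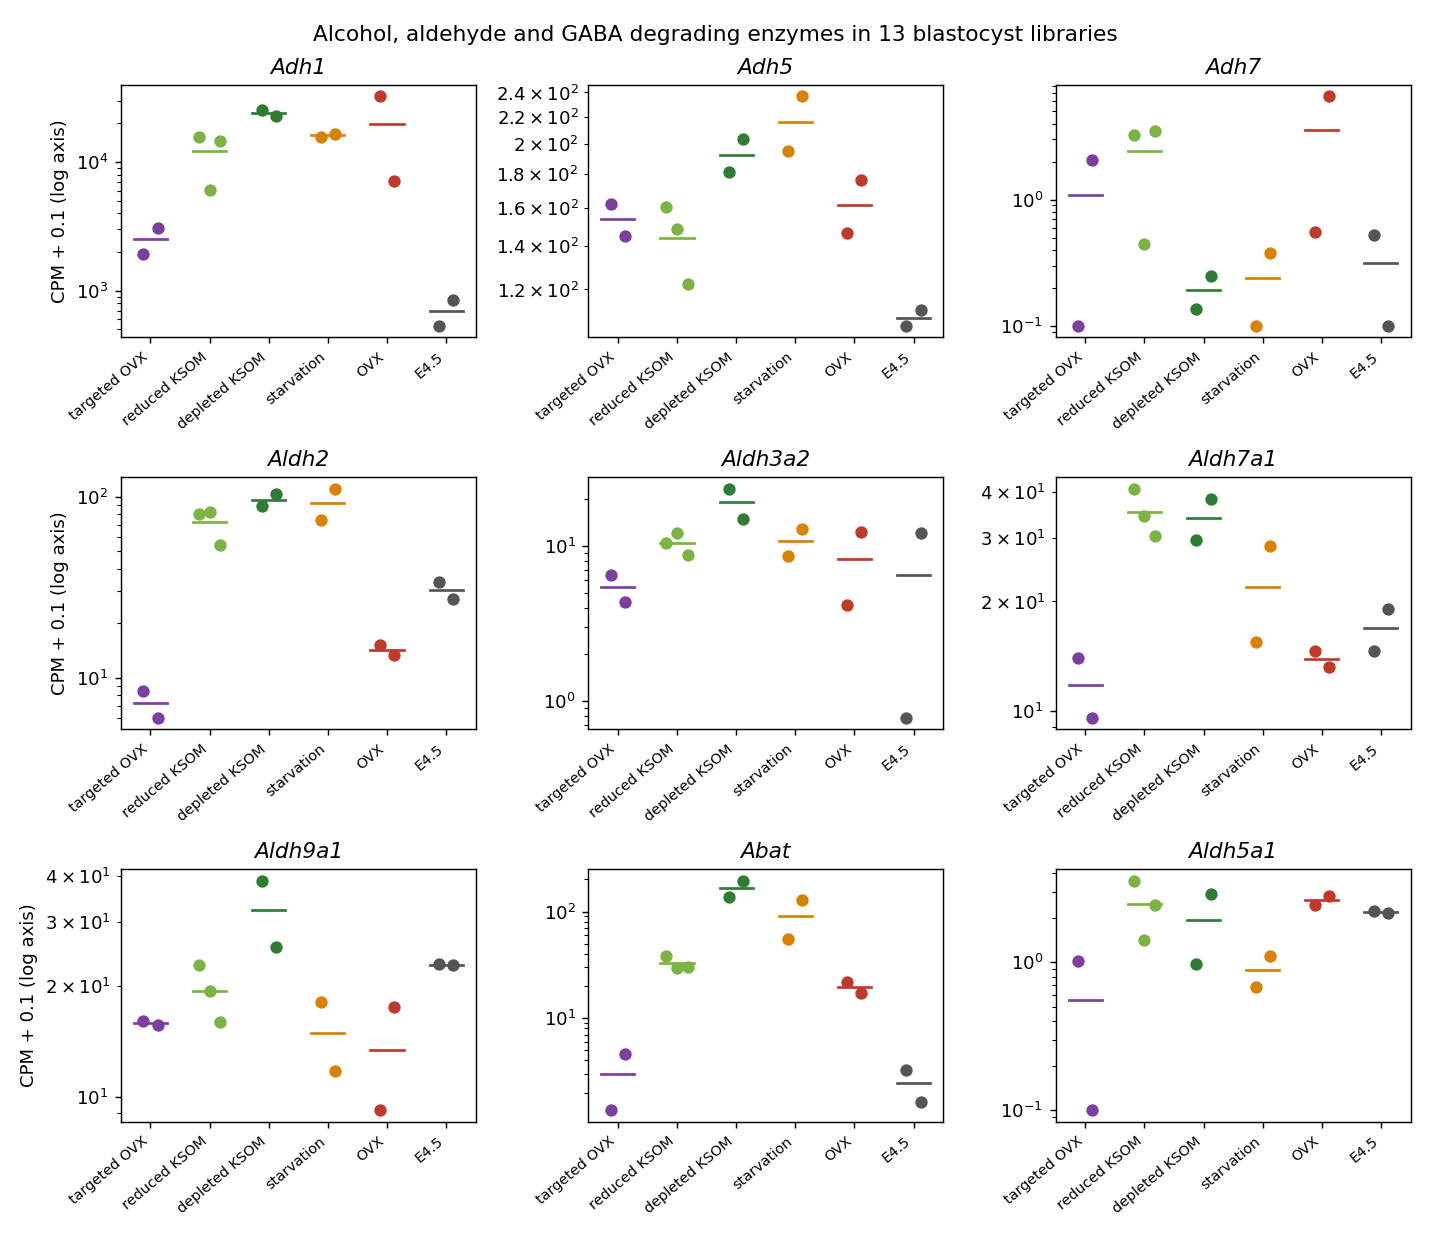
CPM plus 0.1 of each enzyme in the 13 libraries, on log axes, with 1 point per library and a bar at the group mean. The points for Adh1 and Abat are high in reduced KSOM, depleted KSOM, starvation and OVX, whereas Aldh2 is lower in targeted OVX and OVX than in E4.5.

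Abat, the GABA transaminase (ENSMUSG00000057880, chromosome 16, 8513429 to 8621568, plus strand), had the largest fold changes over E4.5 of the 9 genes in the KSOM and starvation groups, apart from Adh1 in reduced KSOM. It had 1.27 and 4.54 CPM in targeted OVX, 38.4, 29.3 and 29.9 CPM in reduced KSOM, 136 and 194 CPM in depleted KSOM, 54.9 and 128 CPM in starvation, 21.9 and 17.1 CPM in OVX, and 3.14 and 1.54 CPM in E4.5. The order by mean was depleted KSOM, starvation, reduced KSOM, OVX, targeted OVX and E4.5, with ranges that overlapped only between the last pair. The log2 fold change over E4.5 was 0.31 in targeted OVX, 3.8 in reduced KSOM, 6.14 in depleted KSOM, 5.29 in starvation and 3.06 in OVX. The sign of the targeted OVX value turned on single libraries, at 0.95 without targeted OVX replicate 1, −0.88 without targeted OVX replicate 2 and −0.12 without E4.5 replicate 2, and it was −0.38 with library totals.

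The next step of GABA breakdown did not move alongside. Aldh5a1 (chromosome 13, 24907579 to 24937661, minus strand) had 0.913 and 0 CPM in targeted OVX, 3.46, 1.31 and 2.33 CPM in reduced KSOM, 0.875 and 2.79 CPM in depleted KSOM, 0.58 and 0.999 CPM in starvation, 2.32 and 2.72 CPM in OVX, and 2.11 and 2.06 CPM in E4.5. It was listed with 0 counts in targeted OVX replicate 2, and in no library did it reach 4 CPM. The FPKM ratio of Abat to Aldh5a1 was 8.15, 16.6 and 9.26 in reduced KSOM, 113 and 50.6 in depleted KSOM, 70.6 and 95.6 in starvation, 6.92 and 4.63 in OVX, and 1.09 and 0.543 in E4.5, with 1 in targeted OVX replicate 1. Low Aldh5a1 counts, 36 to 220 where above 0, limit the precision of these ratios, and 13.7% of the 50-base stretches of its transcript also lie in antisense genes.

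Aldh2, the mitochondrial acetaldehyde dehydrogenase (ENSMUSG00000029455, chromosome 5, 121566027 to 121593824, minus strand), split the diapause groups. It had 8.35 and 5.89 CPM in targeted OVX, 80.5, 82.6 and 54.1 CPM in reduced KSOM, 88.5 and 103 CPM in depleted KSOM, 74.0 and 111 CPM in starvation, 15.0 and 13.3 CPM in OVX, and 33.9 and 27.0 CPM in E4.5. On the TMM scale the KSOM and starvation libraries were all above E4.5, and both ovariectomy groups were below it. By library totals reduced KSOM replicate 3, at 44.2 CPM, lay below E4.5 replicate 1, at 45.5 CPM. The reduced KSOM log2 fold change over E4.5 was 0.58 on that scale. The log2 fold change over E4.5 was −2.1 in targeted OVX, 1.25 in reduced KSOM, 1.65 in depleted KSOM, 1.6 in starvation and −1.11 in OVX, with the same signs by library totals. Among the groups above E4.5, the starvation range overlapped that of each KSOM group, and all reduced KSOM libraries lay below both depleted KSOM libraries.

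The other aldehyde dehydrogenases differed less. Aldh7a1 oxidises the semialdehyde of lysine breakdown and betaine aldehyde, and had 13.9 and 9.44 CPM in targeted OVX, 40.9, 34.3 and 30.2 CPM in reduced KSOM, 29.5 and 38.2 CPM in depleted KSOM, 15.4 and 28.3 CPM in starvation, 14.5 and 13.1 CPM in OVX, and 14.5 and 19.0 CPM in E4.5. It was above E4.5 in both KSOM groups on the TMM scale, by log2 fold changes of 1.07 and 1.02. By library totals reduced KSOM, at 24.7 to 34.1 CPM, overlapped E4.5, at 19.5 and 26.8 CPM. Aldh7a1 moved together with Aldh2 across libraries (Pearson r of log2 CPM 0.854, n = 13 libraries, a description of points that share group and depth). Aldh9a1, which acts on aminobutyraldehyde on a polyamine route to GABA and in carnitine synthesis, had 16.0 and 15.6 CPM in targeted OVX, 22.7, 19.3 and 15.9 CPM in reduced KSOM, 38.8 and 25.6 CPM in depleted KSOM, 18.04 and 11.7 CPM in starvation, 9.08 and 17.5 CPM in OVX, and 22.9 and 22.7 CPM in E4.5, so that only depleted KSOM lay above E4.5 on the TMM scale. By library totals depleted KSOM, at 43.6 and 27.7 CPM, overlapped E4.5, at 30.7 and 32.1 CPM. Aldh3a2, the fatty aldehyde dehydrogenase of the endoplasmic reticulum, had 0.678 and 12.1 CPM in the 2 E4.5 libraries, on a log scale a wider gap than any between its group means, and only depleted KSOM, at 23.4 and 14.9 CPM, lay above both. By library totals depleted KSOM replicate 2, at 16.1 CPM, was below E4.5 replicate 2, at 17.1 CPM.

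Counted over the 9 genes on the TMM scale, ranges lay above E4.5 for 2 and below it for 4 in targeted OVX, where 19.3% of all tested genes lay above and 29.6% below. In reduced KSOM 5 lay above and 1 below (all genes, 24% and 20.4%), in depleted KSOM 7 above and 0 below (24.5% and 30.5%), in starvation 4 above and 2 below (19.8% and 24.7%), and in OVX 5 above and 3 below (21.3% and 24.9%). As the genes were chosen on these comparisons, nothing is read from these counts. The median log2 fold change of the 9 genes was −0.26 in targeted OVX, 1.07 in reduced KSOM, 1.02 in depleted KSOM, 0.74 in starvation and 0.36 in OVX.

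Comparisons between the induced groups were not the ones named in the choice of genes, though they use the same libraries, and 4 of the 6 share the OVX libraries. They were tested with edgeR's quasi-likelihood test, with p-values adjusted by Benjamini-Hochberg over all 21808 genes. As the libraries are shared with the choice of genes, these p-values are not independent of it. The comparison of targeted OVX with OVX sets blastocysts with guides against these 2 mTORC1 restraints beside untargeted ones under ovariectomy. No group with control guides is among the labels. Gene disruption therefore cannot be told apart from the handling of the targeted embryos. None of the 9 genes was called in this comparison, where 0.0367% of all genes were called. At an unadjusted p under 0.05 there were 3 of the 9 and 10.9% of all genes. DESeq2 called 2 of the 9 and 4.06% of all genes, and limma 0 of the 9 and 0.243% of all genes. Adh1 averaged 2509 ± 835 CPM in targeted OVX and 19775 ± 17928 CPM in OVX (SD, n = 2 each), a log2 fold change of −2.98 ± 0.68 (SE, adjusted p = 0.135 by edgeR). Abat averaged 2.9 ± 2.31 CPM in targeted OVX and 19.5 ± 3.34 CPM in OVX (−2.75 ± 0.6, adjusted p = 0.125 by edgeR), and Aldh2 7.12 ± 1.73 CPM in targeted OVX and 14.1 ± 1.21 CPM in OVX (−0.99 ± 0.35, adjusted p = 0.333 by edgeR). For all 3 genes both targeted OVX libraries lay below both OVX libraries. Single libraries decided the edgeR call: Adh1 passed without OVX replicate 2 (−3.7, adjusted p = 0.00321) and was at −1.51 without OVX replicate 1, and Abat passed without targeted OVX replicate 2 (−3.95, adjusted p = 0.0485).

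Aldh2 was higher in all 3 nutrient-restricted groups than in OVX by edgeR. It averaged 92.6 ± 26.3 CPM in starvation (n = 2) and 14.1 ± 1.21 CPM in OVX (n = 2), a log2 fold change of 2.71 ± 0.37 (adjusted p = 0.0198 by edgeR, 0.225% of all genes called). Depleted KSOM averaged 95.9 ± 10.4 CPM (2.76 ± 0.37 over OVX, adjusted p = 0.0106 by edgeR, 0.679% of all genes called), and reduced KSOM 72.4 ± 15.9 CPM (2.36 ± 0.35 over OVX, adjusted p = 0.0242 by edgeR, 0.202% of all genes called). All 7 nutrient-restricted libraries lay above both OVX libraries. The call for depleted KSOM held without any single library. That for starvation was lost without OVX replicate 1. That for reduced KSOM was lost without OVX replicate 2 or without reduced KSOM replicate 1 (adjusted p = 0.106 by edgeR), 2 (0.134) or 3 (0.112). The log2 fold changes of reduced KSOM over OVX in these fits were 2.25 to 2.53. Without the 4 libraries bearing muscle and neutrophil markers the log2 fold change over OVX was 2.83 in starvation and 2.91 in depleted KSOM, as large as before, with adjusted p of 0.192 and 0.0781. Reduced KSOM has no library without these markers, and their part in its value was not tested.

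Abat separated the groups differently. It was higher in depleted KSOM than in OVX, at 165 ± 41.1 CPM in depleted KSOM and 19.5 ± 3.34 CPM in OVX (log2 fold change 3.08 ± 0.6, adjusted p = 0.039 by edgeR), a call lost without OVX replicate 1 (0.121), OVX replicate 2 (0.0521), depleted KSOM replicate 1 (0.0601) or replicate 2 (0.116), and at 3.33 (0.207) without the 4 libraries bearing muscle markers. In starvation the value over OVX was 2.23 ± 0.58 (adjusted p = 0.112 by edgeR, and 0.0432 without starvation replicate 1). In reduced KSOM it was 0.74 ± 0.52 over OVX (95% interval −0.38 to 1.86, adjusted p = 0.655 by edgeR). Between the culture groups Abat was 5.08-fold lower in reduced than in depleted KSOM, at 32.5 ± 5.07 CPM in reduced KSOM and 165 ± 41.1 CPM in depleted KSOM (−2.35 ± 0.51, adjusted p = 0.0242 by edgeR), where 5.79% of all genes were called. The call was lost on leaving out any single library of these 5, with the log2 fold change between −2.58 and −2.07. Without a reduced KSOM library the adjusted p by edgeR was 0.0763 to 0.0909. The muscle and neutrophil markers were high in reduced KSOM and low in depleted KSOM, and their part in this difference was not tested.

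Adh1 was called in none of these comparisons. Its log2 fold change over OVX was −0.71 ± 0.57 in reduced KSOM (95% interval −1.94 to 0.53), 0.29 ± 0.63 in depleted KSOM (−1.08 to 1.66) and −0.29 ± 0.63 in starvation (−1.66 to 1.08), and the wide OVX pair set the sign: without OVX replicate 1 it was 0.76 in reduced KSOM and 1.18 in starvation, and without OVX replicate 2 it was −0.42 in depleted KSOM. With library totals the starvation value was 0.33. In reduced against depleted KSOM it was −1 ± 0.57 (adjusted p = 0.303 by edgeR). Between depleted KSOM and starvation none of the 9 genes was called by edgeR, DESeq2 or limma, which called 0.229%, 5.64% and 0.862% of all genes. At an unadjusted p under 0.05 in edgeR there was 1 of the 9 (Aldh9a1) and 12% of all genes. Over the 9 genes the median log2 fold change was −0.99 in targeted OVX, 0.34 in reduced KSOM, 1.22 in depleted KSOM and 0.38 in starvation against OVX, where that of all genes was −0.09, 0.08, −0.03 and 0. The Aldh2 difference between depleted KSOM and starvation was 0.05 ± 0.34 (95% interval −0.69 to 0.8) and that of Abat 0.85 ± 0.56 (−0.35 to 2.06).

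**Figure D3:**
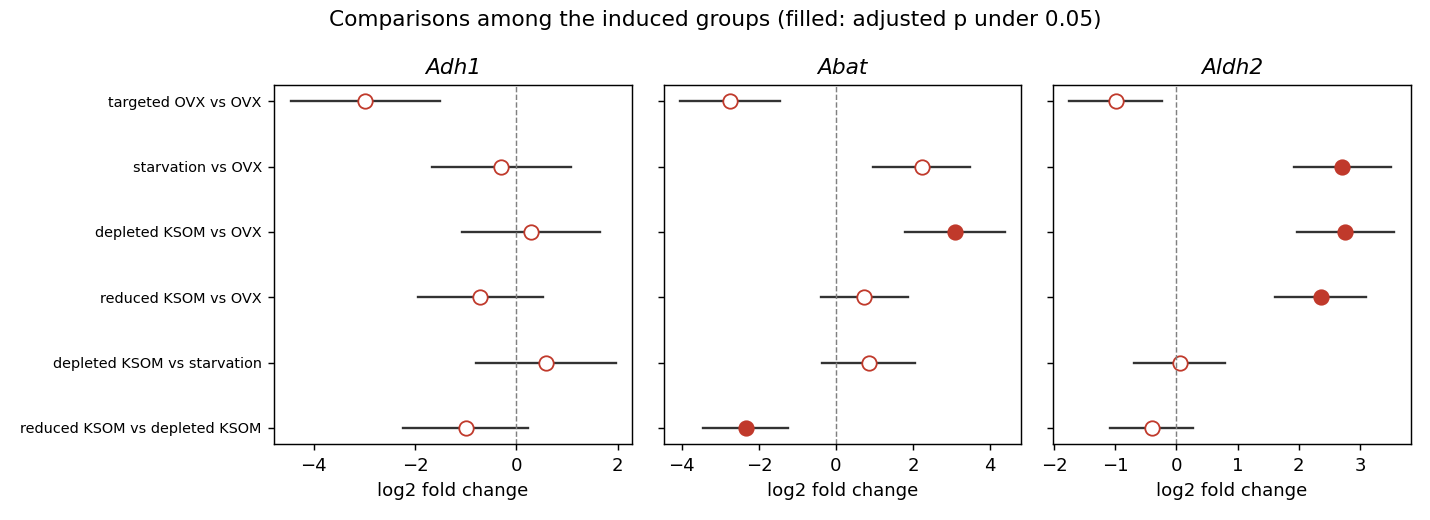
Log2 fold changes (points) with 95% intervals (lines) of Adh1, Abat and Aldh2 in 6 comparisons between induced groups, filled where the adjusted p was under 0.05. Aldh2 is filled in 3 comparisons with OVX, Abat in depleted KSOM against OVX and in reduced against depleted KSOM, and Adh1 in none.

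Further genes of these pathways were read from 9 lists, with 88 of 110 genes tested. Few were called against E4.5 by edgeR: 8 in targeted OVX (1 higher, 7 lower; 2.66% of all genes), 2 in reduced KSOM (1 and 1; 1.13%), 4 in depleted KSOM (4 higher; 5.51%), 3 in starvation (3 higher; 2.21%) and 1 in OVX (lower; 2.04%). The median log2 fold change of the 88 genes was −0.21, 0.42, 0.27, 0.26 and −0.07 in the same order. DESeq2 called 18, 11, 15, 15 and 13 of the 88, where it called 11.8%, 8.15%, 15%, 10.5% and 9.26% of all genes.

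Adhfe1, which oxidises gamma-hydroxybutyrate, a relative of GABA, back to succinic semialdehyde, was higher in 3 of the groups. It had 0 counts in both targeted OVX libraries, 38.7, 30.4 and 26.1 CPM in reduced KSOM, 31.7 and 17.6 CPM in depleted KSOM, 11.7 and 53.9 CPM in starvation, 5.46 and 7.52 CPM in OVX, and 0.0399 and 0.724 CPM in E4.5. Its log2 fold change over E4.5 was 6.38 ± 1.11 in reduced KSOM (adjusted p = 0.0236 by edgeR), 6.01 ± 1.11 in depleted KSOM (0.0112), 6.43 ± 1.13 in starvation (0.017) and 4.09 ± 1.02 in OVX (0.065). The calls in depleted KSOM and starvation held without any single library, although the value ran from 5.09 (without E4.5 replicate 1) to 9.2 (without E4.5 replicate 2) in depleted KSOM and from 4.94 (without starvation replicate 2) to 9.61 (without E4.5 replicate 2) in starvation. In reduced KSOM it was 9.56 without E4.5 replicate 2, and the call there was lost without replicate 1, 2 or 3 of that group (adjusted p = 0.0861, 0.0718 and 0.0752). Against a floor of 3 counts per library, targeted OVX was at least 80.8-fold lower than OVX (adjusted p = 0.0707 by edgeR). Adhfe1 and Abat both make the substrate of Aldh5a1. All reduced KSOM, depleted KSOM and starvation libraries lay above both OVX libraries for each of them, but within these groups they did not share an order, as depleted KSOM replicate 2 had the highest Abat and only 17.6 CPM of Adhfe1.

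**Figure D4:**
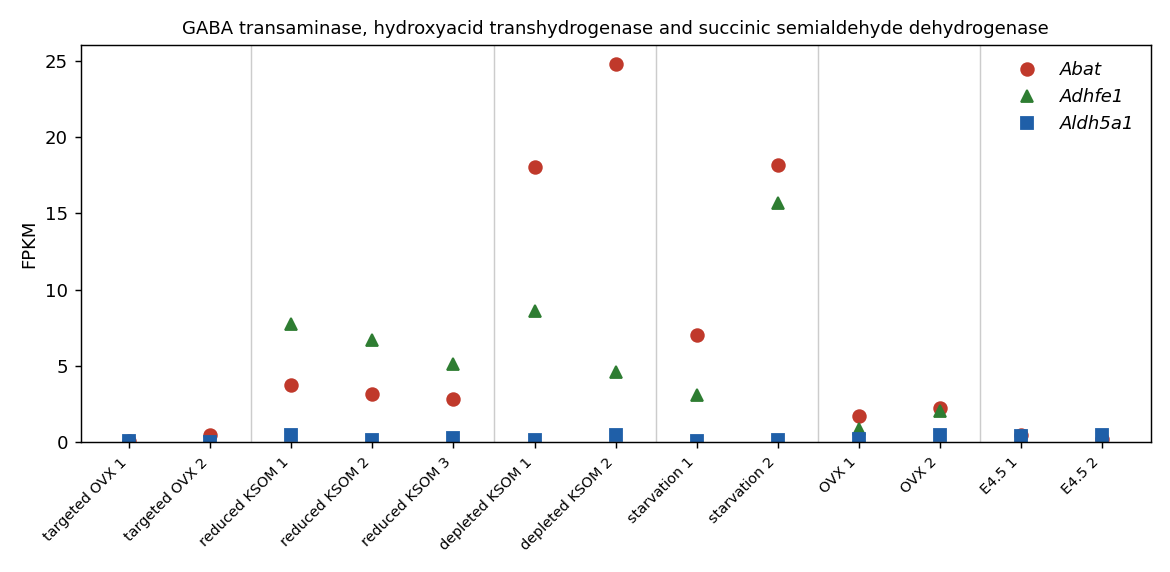
FPKM of Abat, Adhfe1 and Aldh5a1 in each of the 13 libraries, with vertical lines between groups. Abat reaches 24.8 FPKM and Adhfe1 15.7 FPKM, whereas Aldh5a1 stays at or under 0.49 FPKM in every library.

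Of 15 other aldehyde dehydrogenases tested, Aldh6a1, which handles the semialdehyde of valine and thymine breakdown, was higher in starvation than in E4.5, at 59.2 and 225 CPM in starvation and 14.9 and 24.6 CPM in E4.5 (log2 fold change 2.85 ± 0.68, adjusted p = 0.0493 by edgeR), and lower in targeted OVX, at 3.68 and 0.902 CPM (−3.1 ± 0.69, adjusted p = 0.0348 by edgeR). Depleted KSOM, at 90.7 and 91.1 CPM of Aldh6a1, lay above E4.5 as well without being called. Reduced KSOM, at 28.1 to 38.2 CPM, did so on the TMM scale, but overlapped E4.5 by library totals. In OVX Aldh6a1 overlapped E4.5, at 11.9 and 20.6 CPM. A level above E4.5 was thus not particular to starvation. The first call was lost without starvation replicate 2 (adjusted p = 0.245), E4.5 replicate 1 (0.243) or E4.5 replicate 2 (0.0996), and the second without targeted OVX replicate 2 (0.126) or E4.5 replicate 2 (0.108). Aldh1l1, which oxidises formyl tetrahydrofolate, was lower in both ovariectomy groups, at 4.01 and 2.14 CPM in targeted OVX, 7.29 and 6.84 CPM in OVX, and 36.7 and 23.8 CPM in E4.5. Its log2 fold change was −3.3 ± 0.45 in targeted OVX (adjusted p = 0.00567 by edgeR), a call that held without any single library, and −2.1 ± 0.43 in OVX (0.0285), a call lost without any one of the 4 libraries (0.06 to 0.188). The ovariectomy groups had the lowest values of Aldh1l1, as of Aldh2. Depleted KSOM was also below E4.5 in Aldh1l1, at 10.9 and 16.3 CPM, without being called, whereas it was above E4.5 in Aldh2. In Aldh1l1 starvation, at 48.8 and 35.6 CPM, overlapped E4.5, and reduced KSOM, at 39.0 to 55.0 CPM, lay above it on the TMM scale.

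Among 8 genes for the entry of acetate and succinate, Suclg2, a subunit of succinyl-CoA synthetase, was higher in depleted KSOM, at 281 and 271 CPM against 20.9 and 103 CPM in E4.5 (2.15 ± 0.54, adjusted p = 0.0364 by edgeR), as was Akr7a5, an aldehyde reductase, at 84.2 and 74.5 CPM against 28.7 and 14.9 CPM (1.86 ± 0.43, adjusted p = 0.0261 by edgeR). Starvation lay above E4.5 as well without being called, at 227 and 231 CPM of Suclg2 and 54.6 and 35.8 CPM of Akr7a5. In the other groups Suclg2 overlapped E4.5. On the TMM scale Akr7a5 was also above E4.5 in OVX, at 39.3 and 39.4 CPM, and in reduced KSOM, at 34.2 to 64.9 CPM. By library totals Akr7a5 in both of these groups overlapped E4.5. Each call was lost in 3 of the 4 fits without 1 library, at adjusted p up to 0.145 for Suclg2 and 0.203 for Akr7a5. In targeted OVX the mitochondrial acetyl-CoA synthetase Acss1 and the aspartate transaminase Got2 were lower (−1.87 ± 0.45 and −1.65 ± 0.38, adjusted p = 0.0494 and 0.0389 by edgeR). Neither call held without any one library. Acss1 was about as low in OVX, at 4.71 and 7.25 CPM, as in targeted OVX, at 5.07 and 4.09 CPM. Reduced KSOM, at 9.65 to 12.3 CPM of Acss1, also lay below both E4.5 libraries. Depleted KSOM, at 26.3 and 36.1 CPM, lay above them, and starvation overlapped them. Got2 was at most 23.5 CPM in every day 5.5 library, against 38.9 and 33.3 CPM in E4.5. Lower levels were thus not particular to targeted OVX.

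GABA itself is made by Gad1 and Gad2, whose transcripts were near 0, with at most 8 and 17 counts in a library. Of the GABA transport list, the taurine transporter Slc6a6 was higher in depleted KSOM (1.28 ± 0.31, adjusted p = 0.0328 by edgeR) and in starvation (1.36 ± 0.31, adjusted p = 0.0432 by edgeR), at 89.0 to 95.8 CPM in these 4 libraries against 30.1 and 43.8 CPM in E4.5, and neither call held without any one library (0.0661 to 0.433). None of 10 GABA receptor genes tested, 8 amine oxidase genes, 19 retinoid genes or 9 genes of lysine, betaine and carnitine routes was called by edgeR in any group against E4.5. Of 8 fatty aldehyde genes, the sphingosine phosphate lyase Sgpl1, whose product Aldh3a2 oxidises, was lower in targeted OVX (−2.05 ± 0.36, adjusted p = 0.0126 by edgeR) and reduced KSOM (−1.79 ± 0.31, 0.0201), and the phosphatase Sgpp1 was lower in targeted OVX (−2.4 ± 0.51, 0.0284). Without being called, OVX lay below both E4.5 libraries too, at 16.2 and 21.7 CPM of Sgpl1 and 15.5 and 20.8 CPM of Sgpp1. The E4.5 means were 43.6 and 35.3 CPM. Reduced KSOM was also below E4.5 in Sgpp1, at 8.06 to 13.4 CPM. On the TMM scale depleted KSOM and starvation lay above E4.5 in Sgpp1 and overlapped it in Sgpl1. These calls were lost without single libraries, with adjusted p up to 0.208 for Sgpl1 and 0.103 for Sgpp1.

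Of the other alcohol oxidation genes, catalase (Cat), which also oxidises ethanol, was lower in targeted OVX, at 8.12 and 7.75 CPM in targeted OVX and 25.5 and 28.6 CPM in E4.5 (−1.77 ± 0.39, adjusted p = 0.032 by edgeR). OVX, at 9.8 and 16.5 CPM, and reduced KSOM, at 13.1 to 20.5 CPM, lay below E4.5 as well. Depleted KSOM lay above it, at 36.6 and 37.0 CPM. Esd, the S-formylglutathione hydrolase that follows Adh5 in formaldehyde removal, was higher in targeted OVX, at 201 and 122 CPM in targeted OVX and 49.5 and 46.5 CPM in E4.5 (1.75 ± 0.41, adjusted p = 0.0438 by edgeR). In OVX it had 148 and 149 CPM, between the 2 targeted OVX values. It was 97.0 to 104 CPM in reduced KSOM, 97.5 and 138 CPM in depleted KSOM, and 41.2 and 103 CPM in starvation. A level above E4.5 was thus not particular to targeted OVX. The Cat call was lost without any one library (0.0969 to 0.226) and the Esd call without 3 of the 4 (up to 0.249). Between targeted OVX and OVX none of the 88 genes was called by edgeR, with 13 at an unadjusted p under 0.05, where 10.9% of all genes passed. DESeq2 called 2 of the 88 and limma 1, against 4.06% and 0.243% of all genes.

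Among 4937 genes of a mean log2 CPM of at least 4, the genes whose log2 CPM ran most like that of Adh1 over the 13 libraries were Gchfr (Pearson r 0.946), Pex7 (0.946), Npc2 (0.924), Ndufaf7 (0.912) and Clybl (0.91). Predicted gene models, with symbols of Gm plus digits or ending in Rik, were left out of these 4937. Gchfr, the feedback regulator of GTP cyclohydrolase, had 38.5 and 49.7 CPM in targeted OVX, 396 to 414 CPM in reduced KSOM, 366 and 487 CPM in depleted KSOM, 298 and 450.2 CPM in starvation, 642 and 396 CPM in OVX, and 3.75 and 5.36 CPM in E4.5. Those most like Abat were Apopt1 (0.967), Acat1 (0.965), Lta4h (0.964), Galk2 (0.947) and Hibadh (0.934), of which Acat1, the mitochondrial acetoacetyl-CoA thiolase, and Hibadh, which precedes Aldh6a1 in valine breakdown, are mitochondrial enzymes. Those most like Aldh2 were mt-Co2 (0.938), Optn (0.925), Plpp3 (0.902), Tcf15 (0.9) and Aldh6a1 (0.9). Mitochondrially encoded transcripts took 2.05% and 2.8% of counts in targeted OVX, 4.12% to 6.26% in reduced KSOM, 12.2% and 13.2% in depleted KSOM, 5.1% and 7.4% in starvation, 2.29% and 2.57% in OVX, and 5.06% and 6.69% in E4.5, so this share, like Aldh2, was low in the ovariectomy groups, and its part in the Aldh2 differences was not tested. Among the 9 genes, Adh1 and Abat ran together (r = 0.87), and Adh1 with Aldh2 less so (r = 0.462). The 13 points share groups, depth and composition, so these r are descriptions only.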

How the data were processed

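RNA of whole blastocysts was amplified as full-length cDNA without molecular identifiers, per the labels' protocols. The deposited table holds estimated counts per gene on GRCm38, all whole numbers, and FPKM values computed by the authors; cutadapt 1.9, HISAT2 2.0.4 and StringTie 1.3.4d are named in the submitters' processing notes, and the annotation and the counting tool are not given in the sources used here. Depth limits the precision of genes with few counts.

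Genes kept by filterByExpr (21808) were scaled by TMM (factors 0.671 to 1.41) and fitted in edgeR 4.0.16 (glmQLFit, glmQLFTest), all 13 libraries in 1 fit, with a call at an adjusted p under 0.05. Fold changes against a group with 0 counts used a floor of 3 counts per library. Levels between genes used FPKM. Alternatives were DESeq2 1.42.0, limma 3.58.1 on log2(FPKM + 1), other scalings, no filter, the compared groups alone, a replicate block, a term for the 4 muscle-bearing libraries and leaving out each library; leaving out all 4 was added after seeing the data. Scripts were tested on simulated data. R 4.3.3 and Python 3.11.15 were used.

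The 9 genes, the lists and the comparisons were chosen with earlier results of these data known. Named genes are the 9, Nprl2, Tsc2, up to 3 called genes per list and comparison by adjusted p, and the 5 most correlated with Adh1, Abat and Aldh2, predicted gene models left out. Gad1 and Gad2 were named after their values were seen. Replicate numbers did not pair samples, with correlations of deviations of −0.04 to 0.07 over 15 pairs of groups. No 2 libraries of a group agreed within counting noise (chi-square per degree of freedom 87.4 to 733).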

Additional observations from a re-analysis of the deposited data

Results flagged for a closer look

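Differences of Aldh2 and Abat between induced groups passed the test of the difference itself (edgeR, adjusted p under 0.05). Both genes were chosen for rises over E4.5 in libraries used again here, so these tests are not independent of the choice. Only the Aldh2 call in depleted KSOM against OVX held without any single library. No call remained with a term for the 4 muscle-bearing libraries. Aldh2 was higher than in OVX by a log2 fold change of 2.71 in starvation, 2.76 in depleted KSOM and 2.36 in reduced KSOM, in 7 of 7 libraries. Abat was higher by 3.08 in depleted KSOM than in OVX, in 2 of 2 libraries, and its value in reduced against depleted KSOM was −2.35, with all 3 reduced KSOM libraries below both depleted KSOM libraries. The comparisons with OVX share the same 2 OVX libraries.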

How the results depend on the processing

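Without a filter on low counts, edgeR called 2 of the 9 genes in targeted OVX against OVX and 2 in starvation against OVX, and 16, 9, 12, 9 and 9 of the pathway genes in targeted OVX, reduced KSOM, depleted KSOM, starvation and OVX against E4.5, with 5 in targeted OVX against OVX. DESeq2 called 2, 2, 4 and 2 of the 9 in targeted OVX, reduced KSOM, depleted KSOM and starvation against OVX, and 18, 11, 15, 15 and 13 pathway genes in the 5 groups against E4.5, with 2 in targeted OVX against OVX. DESeq2 called 4.06%, 3.32%, 9.22% and 7.64% of all genes in these comparisons with OVX. Limma called 2 of the 9 in starvation against OVX and 15, 12, 10, 9 and 11 pathway genes, with 1 in targeted OVX against OVX. Limma called 0.968% of all genes in starvation against OVX and 10.4%, 10.3%, 12.2%, 8.25% and 8.41% in the 5 groups against E4.5. With only the compared groups in the fit, 0 of the 9 were called in reduced KSOM, depleted KSOM or starvation against OVX, and 0, 16, 9, 0 and 0 pathway genes against E4.5. Scaling by library totals left 0 of the 9 in reduced KSOM against OVX, and 5, 1 and 1 pathway genes in reduced KSOM, depleted KSOM and starvation. It also put the higher share of all called genes at 52.7% in depleted KSOM against OVX, 78.6% in starvation against OVX and 38.8% in reduced against depleted KSOM, against 42.6%, 34.7% and 51.6% with TMM.

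With the replicate number as a block, which does not pair these samples, 0 of the 9 were called in reduced KSOM and 1 in depleted KSOM against OVX, 0 in starvation against OVX and 0 in reduced against depleted KSOM, and 3, 1, 1 and 0 pathway genes in targeted OVX, reduced KSOM, starvation and OVX against E4.5. A term for the 4 muscle-bearing libraries left 0 of the 9 in reduced KSOM, depleted KSOM and starvation against OVX and 0 in reduced against depleted KSOM, with 0 pathway genes in reduced KSOM and 0 in OVX. Without these 4 libraries, 0 of the 9 were called in depleted KSOM or starvation against OVX, and 4, 1 and 0 pathway genes in targeted OVX, starvation and OVX. The comparisons of reduced KSOM cannot be made without them.

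Leaving out 1 library at a time gave 0 to 1 of the 9 called in targeted OVX, 0 to 1 in reduced KSOM, 1 to 1 in depleted KSOM and 0 to 2 in starvation against OVX, and 0 to 0 in reduced against depleted KSOM. It gave 2 to 7, 0 to 1, 1 to 4, 1 to 3 and 0 to 3 pathway genes in the 5 groups against E4.5, and 0 to 3 in targeted OVX against OVX. A lone library in a group was then assumed to vary like the other groups. The sign turned for Adh1 in starvation against OVX with library totals (0.33), limma (0.48), the muscle term (1.19) and without the 4 libraries (1.22), with −1.01 to 1.18 leaving out single libraries. It also turned for Adh1 in reduced KSOM (−1.42 to 0.76) and depleted KSOM (−0.42 to 1.77) against OVX leaving out single libraries, and for Aldh2 in depleted KSOM against starvation with library totals (−0.04) and leaving out single libraries (−0.17 to 0.38). Abat in targeted OVX against E4.5 also turned, from 0.31, at −0.38 with library totals and −0.88 to 0.95 leaving out single libraries, and its sign turned with limma too. The cause was not tested. Of 468 alternatives for the other 6 genes, 37 turned sign and 3 became calls.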
